A study of Mus musculus with 9 samples.

Results

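The epidermal growth factor (EGF) family was examined in 3T3-L1 adipocytes, fat cells differentiated in culture from a mouse preadipocyte line. The 10 genes were chosen by symbol, as the ligands Ereg, Areg, Hbegf, Btc, Tgfa and Nrg1, the receptors Egfr, Erbb2 and Erbb3, and the receptor inhibitor Errfi1. The choice was made with the levels on these 9 arrays already known, among them the high level of Ereg under conjugated linoleic acid. The differences of these genes between groups are therefore given as a description, with no p-value, and support nothing further. Of the 10 genes 9 had at least 1 probe set under their symbol, 21 probe sets in all, among 45037 probe sets and 18193 named genes. No probe set carried the symbol Areg, so Areg is not analysed here.

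The cells had received phenformin, conjugated linoleic acid (CLA) or linoleic acid (LA), and LA was the control. Phenformin, a glucose-lowering biguanide, acts on mitochondria and is used to switch on the energy sensor AMPK. CLA is an isomer of LA in which the double bonds are conjugated. Each of the 3 groups had 3 arrays of separate biological replicates, per the labels, all from this 1 cell line. The sources used here give neither dose nor time nor which CLA isomer was used, nor whether LA was present in the phenformin cultures, so the treatments are not known to be matched. Expression is given as log2 values of probe sets after robust multi-array averaging (RMA). Levels are mean ± SD and differences are log2 fold changes ± SE, with n = 3 arrays per group throughout. Levels of different probe sets are not compared as amounts, since each has its own probes.

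EGF family ligands are made as transmembrane precursors, and proteases such as ADAM17 release the active growth factor from the cell surface. Ereg, Areg, Hbegf, Btc and Tgfa bind the receptor EGFR, whereas the neuregulin Nrg1 binds ERBB3 and ERBB4. ERBB2 has no known ligand of its own and pairs with the other receptors. Ligand binding starts RAS and ERK signalling, and the adaptor protein encoded by Errfi1 (also called Mig6) is induced by that signal and blocks the EGFR kinase. In preadipocytes and adipocytes, EGF receptor ligands are known to hold back adipogenic differentiation, and Nrg4 is known as a ligand secreted by brown fat.

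In the RefSeq annotation (GRCm38.p6) the protein-coding genes Epgn, Ereg, Areg and Btc follow each other directly on chromosome 5. The RefSeq promoter table held windows for 6 of the 10 genes, and Ereg was not among them. Each window spans 300 bases, from 250 before the annotated start to 50 after it. Those of Btc, Egfr and Errfi1 are shown because these genes give an example of a ligand, a receptor and an inhibitor whose levels differed between groups. That choice was made after their values were seen. Capitals mark matches, on either strand, to motifs that were searched in the windows of those 6 genes. They were the AP-1 site TGANTCA, the GC box GGGCGG, the TATA box TATAAA and the cyclic AMP response element TGACGTCA. The shorter form TGACG, which lies within that element, was searched too.

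The windows lie at chr5:91402945-91403244 on the minus strand (Btc), chr11:16751953-16752252 on the plus strand (Egfr) and chr4:150854820-150855119 on the plus strand (Errfi1, the downstream one of its 2 annotated starts), build GRCm38.p6.
Btc: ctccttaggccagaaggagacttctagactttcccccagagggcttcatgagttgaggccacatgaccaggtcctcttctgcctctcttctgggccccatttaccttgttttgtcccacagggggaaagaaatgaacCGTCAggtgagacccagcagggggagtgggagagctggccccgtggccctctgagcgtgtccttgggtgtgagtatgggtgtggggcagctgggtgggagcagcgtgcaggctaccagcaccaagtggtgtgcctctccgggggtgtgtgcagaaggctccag
Egfr: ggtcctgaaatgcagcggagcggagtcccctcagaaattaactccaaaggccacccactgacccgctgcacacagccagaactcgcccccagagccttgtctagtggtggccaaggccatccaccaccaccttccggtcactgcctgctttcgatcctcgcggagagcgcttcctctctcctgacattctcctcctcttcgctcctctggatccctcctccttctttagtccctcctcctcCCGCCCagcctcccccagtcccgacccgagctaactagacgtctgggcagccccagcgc
Errfi1: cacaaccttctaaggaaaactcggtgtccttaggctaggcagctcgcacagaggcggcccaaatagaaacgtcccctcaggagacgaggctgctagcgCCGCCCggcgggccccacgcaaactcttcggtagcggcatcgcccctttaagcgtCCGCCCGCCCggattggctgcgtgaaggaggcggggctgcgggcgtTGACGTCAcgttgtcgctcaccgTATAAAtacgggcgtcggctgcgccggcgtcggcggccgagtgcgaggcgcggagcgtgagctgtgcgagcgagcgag

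The Errfi1 window held the full cyclic AMP response element with its leftmost base 51 bases before the start and a TATA box 28 bases before it, beside 3 GC boxes. A full element was found in 1.79% of the 32851 promoter windows of the table and a TATA box in 13.6%. The other Errfi1 window had none of the 5 motifs. The window of Areg, which had no probe set under its symbol, also held the full element, 61 bases before its start. It had a TATA box 31 bases before the start. The Btc window had the shorter form alone, which 20.8% of all windows hold, and the Egfr window had a single GC box, found in 35.7%. The AP-1 motif, present in 7.81% of all windows, was in none of the 7 windows searched. These were windows of Errfi1, Areg, Btc, Tgfa, Egfr and Erbb2, whereas Ereg, Hbegf, Nrg1 and Erbb3 were not searched. These matches describe the letters in the windows only.

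The adipocyte markers listed for the check were bright in every group. All 7 measured of 8 lay above background on every array, with summed linear intensities of 80760 to 87970 in phenformin, 80070 to 88390 in CLA and 48610 to 92530 in LA. Of these 7, Cidec was called higher in both treatments than in LA (0.77 in phenformin and 0.98 in CLA), and Pparg was called lower in CLA (-1.25; -0.58 in phenformin, not called). Background was taken per array as the 95th percentile of 27 control probe sets for transcripts that mouse cells lack, and lay between 3.68 and 4.20. Markers of preadipocytes and fibroblasts moved with the groups: of 6 measured of 7 listed, 4 were called higher in phenformin and 5 in CLA than in LA. Their summed intensity was 7159 to 11560 in phenformin, 9811 to 13260 in CLA and 1997 to 3794 in LA, and Cd34 was not above background on any array. Of 6 macrophage markers 2 were called lower in phenformin and 1 higher in CLA than in LA, of 4 epithelial markers 1 was lower in phenformin and 2 in CLA, and of 4 endothelial markers none was called. Adgre1, 1 of the 2 macrophage markers called lower in phenformin, was above background on 1 LA array alone. Of all named genes 13.7% were called higher and 5.11% lower in phenformin than in LA, and 12.6% and 7.58% in CLA. Ptprc and Itgam of the macrophage list, Cdh1 of the epithelial list and Tek and Vwf of the endothelial list stayed at background on every array. By contrast Cd14, Cd68 and Csf1r, and Epcam, Krt8 and Krt18, were above background on all 9 arrays, with group means of 5.35 to 8.91 and of 4.63 to 8.32. The beta-actin probe sets at the 3' end exceeded those at the 5' end, a gap that widens with degraded RNA, by 0.49 to 0.66 in phenformin, 0.43 to 0.63 in CLA and 0.98 to 1.71 in LA. LA replicate 3 stood apart in its bright probe sets: its top percentile began at 11.62, while that of the other arrays began at 12.18 to 12.45. Without it 8, 5 and 6 of the 21 family probe sets were called in CLA minus LA, phenformin minus LA and phenformin minus CLA, against 8, 5 and 5 with it. The part of these differences in the results below was not tested. Fewer cells of a type and less RNA per cell cannot be told apart in such bulk samples.

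Across the family, CLA cultures had higher levels of the ligands Ereg, Hbegf and Btc and of the receptors Egfr and Erbb2 than LA cultures. Phenformin cultures shared the higher Egfr, had Ereg, Hbegf and Btc levels nearer to those of LA, and had a lower level of the inhibitor Errfi1. This summary rests on the brightest probe set of each gene, and other probe sets of Egfr and Errfi1 were not all called. Of the 21 probe sets, 8 were called higher and 0 lower in CLA than in LA, where a call is an adjusted p under 0.05 in a limma fit over all probe sets. Among all probe sets 10.1% were called higher and 6.37% lower in that comparison. Between phenformin and LA 4 were called higher and 1 lower, against 11.5% and 4.96% of all probe sets. Between phenformin and CLA 1 was called higher and 4 lower, against 2.87% and 1.68%. These counts take probe sets of 1 gene separately, and the 4 higher in phenformin than in LA were of Egfr and Btc alone. The Btc one, also among the 8 in CLA, was not above background on any array. By brightest probe set, 5 of 9 genes were higher and 0 lower in CLA than in LA, against 12.6% and 7.58% of named genes. In phenformin 1 was higher and 1 lower than in LA, against 13.7% and 5.11%. Between phenformin and CLA 0 were higher and 3 lower, against 3.95% and 2.35%. Because these contrasts were in view when the family was chosen, the counts are a description. The median log2 fold change of the 21 probe sets was 0.39 for CLA minus LA, 0.21 for phenformin minus LA and -0.32 for phenformin minus CLA. Over all probe sets these medians were 0.04, -0.004 and -0.04. After quantile normalization of the deposited values the calls among the 21 were 8 higher and 1 lower, 3 higher and 2 lower, and 1 higher and 5 lower in the same order of comparisons. That normalization also moved the calls over all probe sets toward lower. In the same order 46.6%, 48.8% and 52.4% of all calls were then higher, against 61.4%, 69.8% and 63.1% without it. Both comparisons with LA share the same 3 LA arrays, and both with CLA the same CLA arrays.

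**Figure D1:**
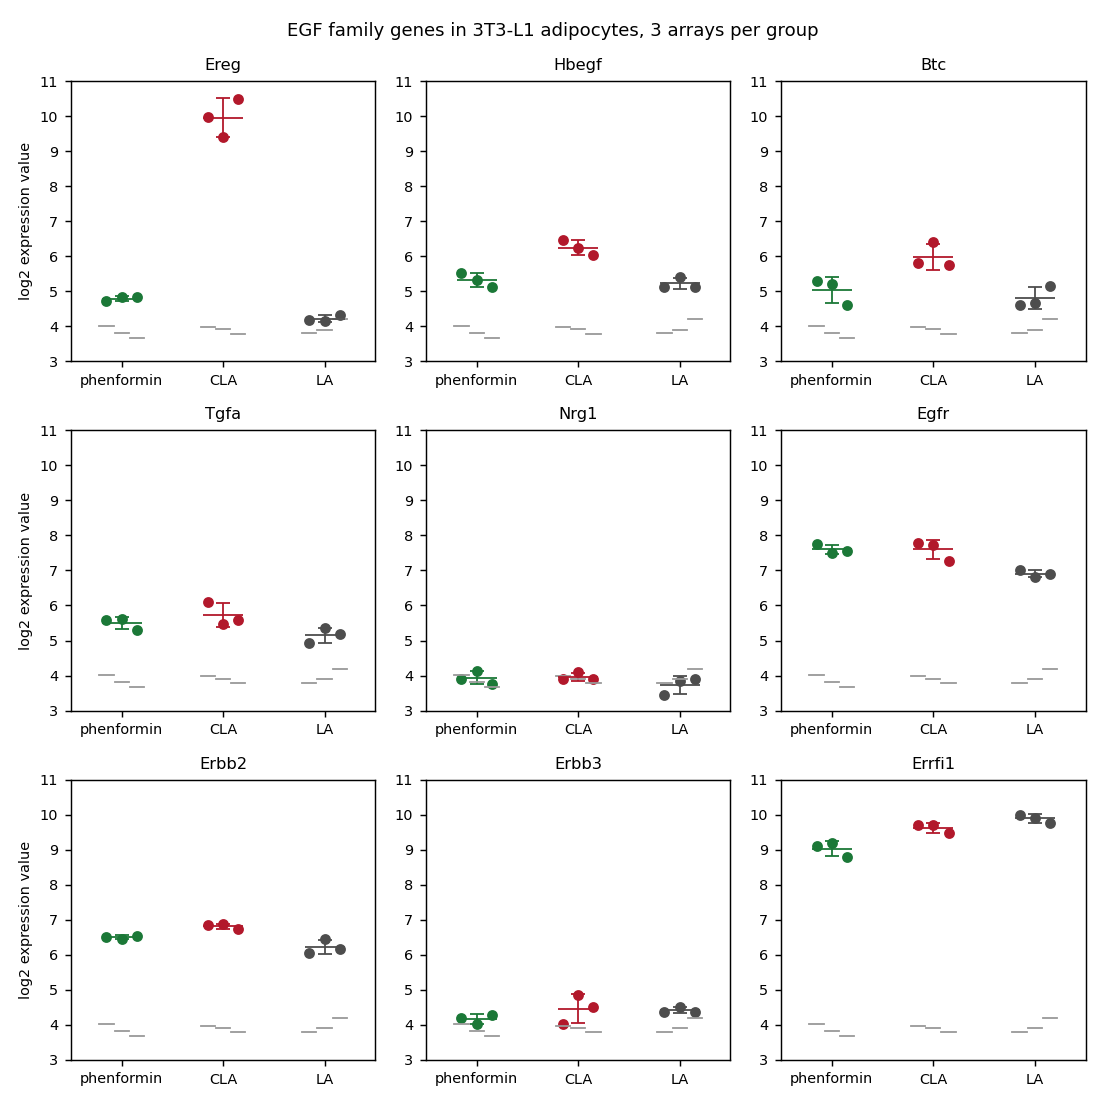
Log2 expression value (vertical axis) of the brightest probe set of each measured family gene on every array, for phenformin, CLA and LA cultures. Points are arrays, horizontal bars with whiskers are means ± SD (n = 3), and short grey lines are the background level of each array. Ereg stands at 9.39 to 10.49 in CLA, apart from the other 2 groups, and Nrg1 lies at the background level.

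Ereg encodes epiregulin, a ligand of EGFR and ERBB4 that many cells make only on stimulation. Its single probe set read 9.98, 9.39 and 10.49 on the CLA arrays, against 4.17, 4.14 and 4.32 on the LA arrays. Every CLA array was more than 5 log2 units above every LA array, and the difference was 5.74 ± 0.22, or 53.6-fold. The LA values lay just above the background of their arrays, at 3.80, 3.90 and 4.20, so the size of the fold is uncertain. The phenformin arrays read 4.71, 4.82 and 4.82, all of them above the 3 LA arrays and far below the CLA arrays. Phenformin minus LA was 0.58 ± 0.22 (95% interval 0.08 to 1.07), a difference not called, and phenformin minus CLA was -5.17 ± 0.22, or 36.0-fold lower in phenformin. The order of the 3 levels was thus CLA, phenformin and LA, with the last 2 not separated by a call. Phenformin and LA were separated by a call in 4 of 16 alternatives, those without CLA replicate 2 or 3, with array weights and with a fit of the 2 groups (0.58 to 0.61). Ereg also had the widest spread of the brightest probe sets within CLA, at an SD of 0.55, against 0.06 in phenformin and 0.10 in LA.

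Hbegf encodes heparin-binding EGF-like growth factor, a ligand of EGFR and ERBB4 that is shed from the surface. The brighter of its 2 probe sets (1418349_at) read 6.45, 6.25 and 6.04 in CLA, against 5.14, 5.42 and 5.13 in LA. The CLA arrays did not overlap the LA arrays, and the difference was 1.02 ± 0.15, or 2.02-fold. Phenformin arrays read 5.53, 5.33 and 5.12, which overlapped LA, with a difference of 0.10 ± 0.15 (95% interval -0.24 to 0.43). Phenformin minus CLA was -0.92 ± 0.15, with no overlap and a call. The other probe set (1418350_at) read 6.06, 6.69 and 5.37 in CLA, against 4.40, 4.51 and 4.40 in LA. It gave the same direction with a larger difference of 1.61 ± 0.26, and its CLA arrays were far more scattered. On that probe set phenformin read 4.94, 4.83 and 4.82, above each LA array without a call (0.43 ± 0.26), and below every CLA array (-1.18 ± 0.26, called). That last call was lost in the fit of the 2 groups, without CLA replicate 1 or 2 and without any phenformin array, and the difference ranged from -1.51 to -0.85 over the removal of single arrays.

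Btc encodes betacellulin, a ligand of EGFR and ERBB4. Its brighter probe set (1435541_at) read 5.79, 6.40 and 5.75 in CLA, against 4.60, 4.68 and 5.16 in LA. The groups did not overlap and the difference was 1.17 ± 0.24, or 2.25-fold. Phenformin arrays read 5.30, 5.21 and 4.61 and overlapped LA (0.23 ± 0.24). They lay below every CLA array, by -0.94 ± 0.24, a difference just short of a call that 6 of 16 alternatives called. The other Btc probe set (1421161_at) was not above background on any array, so its calls have no interpretable fold. It read 3.35, 3.41 and 3.30 in phenformin, 3.73, 3.67 and 3.67 in CLA and 2.70, 2.81 and 2.83 in LA.

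Tgfa encodes transforming growth factor alpha, a ligand of EGFR. The brightest of its 3 probe sets (1450421_at) read 6.11, 5.47 and 5.59 in CLA, against 4.92, 5.35 and 5.18 in LA. The lowest CLA array was only slightly above the highest LA array, and the difference of 0.58 ± 0.18 was not called. Phenformin read 5.57, 5.61 and 5.31, between the other groups (0.35 ± 0.18 against LA, not called). The 2 other probe sets overlapped in all comparisons, with differences between -0.36 and 0.24. The Tgfa difference between CLA and LA was called in 3 of 16 alternatives, one of them the fit without CLA replicate 2 (0.70).

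Nrg1 encodes neuregulin 1, a ligand of ERBB3 and ERBB4. Its probe set read 3.91, 4.13 and 3.76 in phenformin, 3.90, 4.09 and 3.90 in CLA and 3.45, 3.84 and 3.90 in LA. It was above background on 2 of 3 phenformin arrays, 2 of 3 CLA arrays and 0 of 3 LA arrays, so no fold is given. No comparison called it.

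Egfr, the receptor for most of these ligands, was measured by 7 probe sets, which did not move alike. The brightest (1460420_a_at) read 7.80, 7.73 and 7.28 in CLA, against 7.02, 6.80 and 6.90 in LA. All CLA arrays were above all LA arrays, with a difference of 0.69 ± 0.15, or 1.62-fold. Phenformin arrays read 7.74, 7.51 and 7.55, also above every LA array by 0.69 ± 0.15, and overlapped CLA. The interval of phenformin minus CLA on this probe set was -0.34 to 0.33. The call of phenformin against LA was lost after quantile normalization (0.47).

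A pair of further Egfr probe sets had larger differences in phenformin. Probe set 1424932_at read 7.45, 7.67 and 7.50 in phenformin, against 6.62, 6.17 and 6.56 in LA, a difference of 1.10 ± 0.17. Its CLA arrays, at 6.89, 6.42 and 6.88, overlapped LA (0.28 ± 0.17). It was the only one of the 21 probe sets called higher in phenformin than in CLA (0.81 ± 0.17), and lost that call without CLA replicate 1 or 2 and without any phenformin array (0.66 to 0.89 with single arrays removed). Probe set 1435888_at read 7.32, 7.62 and 7.07 in phenformin, 6.90, 6.96 and 7.14 in CLA and 6.44, 6.03 and 6.39 in LA. Here both treatments were above LA, by 1.05 ± 0.16 for phenformin and 0.71 ± 0.16 for CLA, and they overlapped each other. The CLA call on that probe set was lost without LA replicate 2, and over the removal of single arrays the difference was 0.59 to 0.79.

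The other 4 Egfr probe sets were called in no comparison. Of these, 1451530_at lay higher in both treatments without overlap with LA (0.69 ± 0.24 in phenformin and 0.49 ± 0.24 in CLA). Probe sets 1432647_at and 1454313_at had differences from LA between -0.13 and 0.39. Probe set 1457563_at was not above background on any array.

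**Figure D2:**
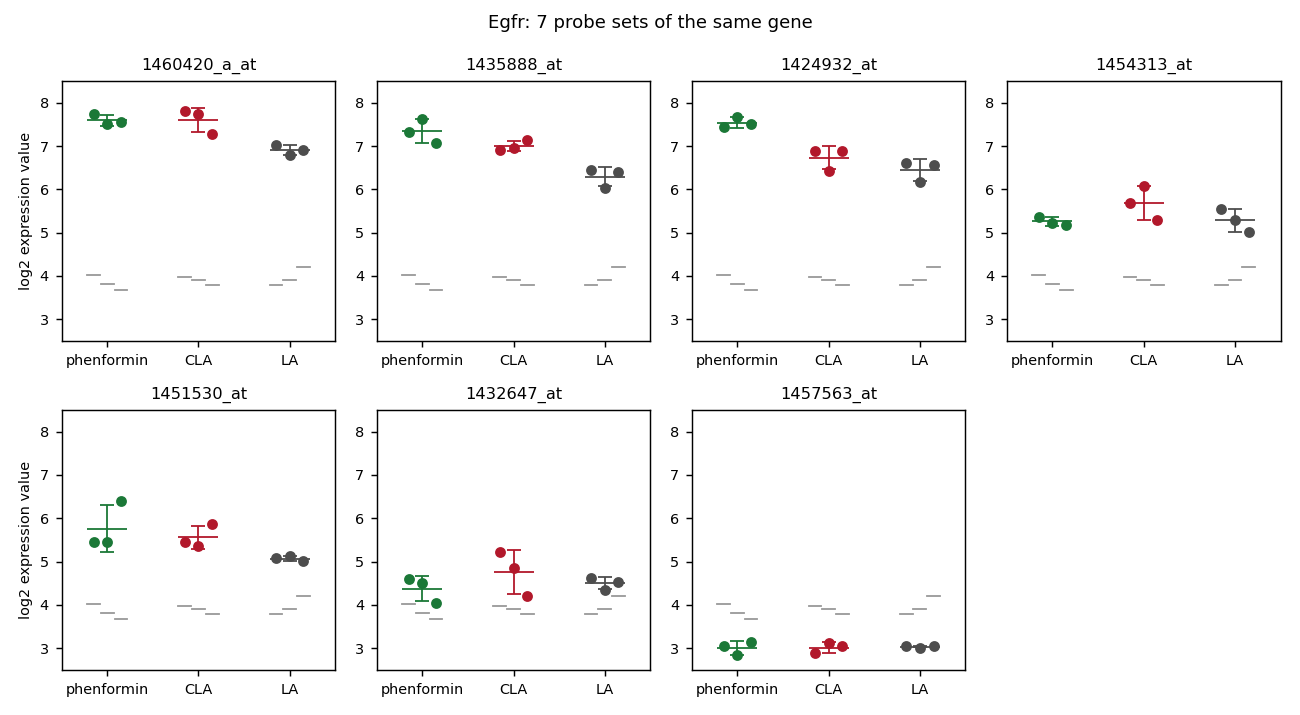
Log2 expression value (vertical axis) of the 7 Egfr probe sets on every array of the phenformin, CLA and LA groups. Points are arrays, bars with whiskers are means ± SD (n = 3) and grey lines mark each array's background. Both treatments lie above LA without overlap on 1460420_a_at, 1435888_at and 1451530_at, the last not called. Phenformin alone does so on 1424932_at, and 1457563_at lies below background.

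Erbb2 encodes the receptor that pairs with the other family receptors. Its probe set read 6.84, 6.88 and 6.74 in CLA, against 6.04, 6.44 and 6.17 in LA. The groups did not overlap and the difference was 0.60 ± 0.12, or 1.52-fold. Phenformin arrays, at 6.51, 6.44 and 6.54, touched the upper end of LA (0.28 ± 0.12, not called) and lay below CLA (-0.32 ± 0.12, not called). Erbb3, the neuregulin receptor with little kinase activity, was dim: its probe sets read 3.79 to 4.28 in phenformin, 3.95 to 4.85 in CLA and 4.22 to 4.60 in LA. No comparison called Erbb3. Both of its probe sets lay lower in phenformin than in LA without overlap, by -0.26 ± 0.18 and -0.44 ± 0.14, and the second was called after median centring and after quantile normalization.

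Errfi1 encodes the feedback inhibitor of EGFR. The brighter of its 2 probe sets (1416129_at) read 9.11, 9.19 and 8.78 in phenformin, against 9.996, 9.91 and 9.76 in LA. Every phenformin array was below every LA array and the difference was -0.86 ± 0.14, or 1.82-fold lower in phenformin. CLA arrays read 9.70, 9.69 and 9.47, also below each LA array, but by -0.27 ± 0.14, which was called after quantile normalization (-0.49) and in no other alternative. Phenformin was below CLA too (-0.59 ± 0.14, called), a call that was lost in 9 of 16 alternatives. The arrays whose removal ended it were LA replicates 1 and 2, CLA replicates 1 and 2 and all 3 phenformin replicates, with log2 fold changes of -0.68 to -0.47. The other probe set (1419816_s_at, of a class that may match more than 1 transcript) read 7.72, 7.73 and 8.27 in phenformin, 8.20, 8.24 and 8.84 in CLA and 8.27, 8.40 and 8.18 in LA. Its groups overlapped in every comparison and it was not called.

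**Figure D3:**
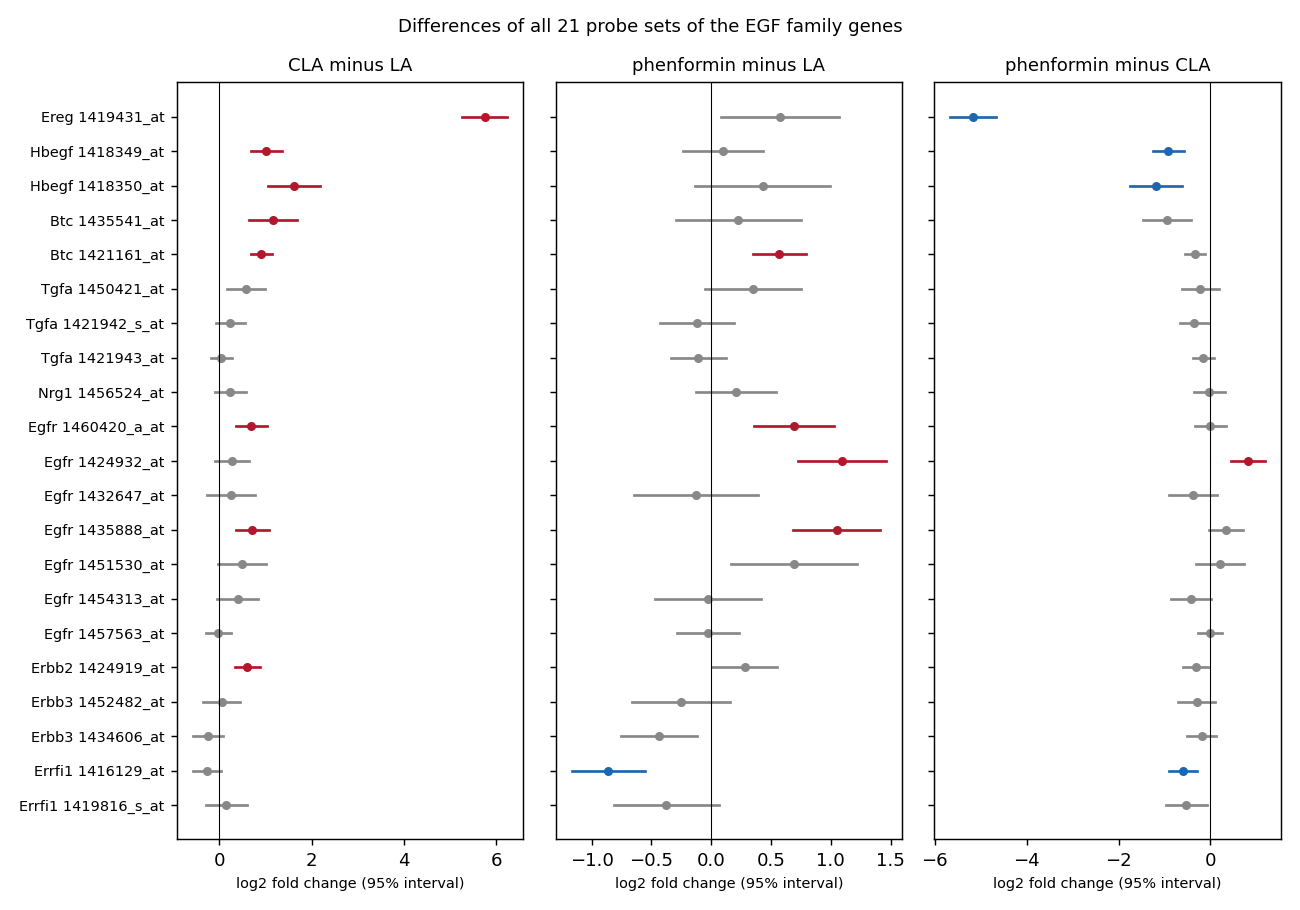
Log2 fold change (horizontal axis, with a range of its own in each panel) and 95% interval of each of the 21 probe sets for CLA minus LA, phenformin minus LA and phenformin minus CLA. Red marks a probe set called higher, blue one called lower and grey one not called. Ereg at 5.74 and -5.17 exceeds all others, and Egfr 1424932_at is the one probe set called higher in phenformin than in CLA. Btc 1421161_at and Egfr 1457563_at were not above background.

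By correlation over the 9 arrays, the genes most like Ereg were Fosl1 (r = 0.994), an AP-1 subunit, and Dusp5 (0.990), a phosphatase of ERK. They were followed by the cytokine gene Clcf1 (0.990) and the early response genes Egr1 (0.989) and Ier5 (0.988). Each was several log2 units higher in CLA than in the other groups: Fosl1 averaged 6.29 in phenformin, 11.01 in CLA and 5.78 in LA. Egr1 averaged 8.53 in phenformin, 11.47 in CLA and 8.20 in LA. The genes most like Egfr were Gatad2b (0.963), Mcu (0.961), Notch2 (0.960), Six4 (0.957) and Hdgf (0.957), which were higher in both treatments. The receptor gene Notch2 averaged 8.81 in phenformin, 8.99 in CLA and 7.63 in LA. Those most like Errfi1 were Dido1 (0.952), Kbtbd8 (0.943), Fbxo9 (0.932), Txndc11 (0.924) and H6pd (0.923), all lowest in phenformin. Dido1 averaged 7.06 in phenformin, 8.41 in CLA and 8.77 in LA. The candidates were 1789 genes whose group means spanned at least 1 log2 unit, and since the arrays fall into 3 groups these values mostly tell that group means are alike.

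The other genes of the family and of its pathway were taken from lists sorted by role, of which 52 of 57 genes were measured. These lists were drawn up with earlier results of the same arrays known. Most genes named below were picked from them by smallest adjusted p. Their p-values are therefore a description as well and give no independent support. Between CLA and LA 9 were higher and 5 lower, against 12.6% and 7.58% of all named genes. Between phenformin and LA 14 were higher and 5 lower, against 13.7% and 5.11%, and between phenformin and CLA 2 were higher and 2 lower, against 3.95% and 2.35%. With quantile normalization the counts against LA became 8 higher and 8 lower for CLA and for phenformin alike. Over all probe sets 46.6% of the CLA calls and 48.8% of the phenformin calls were then higher, against 61.4% and 69.8% without it. The median log2 fold change of the 52 genes was 0.10, 0.27 and 0.12 in the order of these comparisons, against 0.05, 0.01 and -0.03 over all genes.

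Of the 6 other family genes Nrg4 alone was called. Nrg4, the neuregulin that brown fat secretes, read 6.26, 6.21 and 6.12 in CLA, against 7.90, 7.61 and 7.32 in LA. It fell by 1.42 ± 0.15 in CLA (limma adjusted p = 0.000155), to a level below every LA array. In phenformin it read 6.76, 6.92 and 6.63 and fell by 0.84 ± 0.15 (adjusted p = 0.00375), and phenformin minus CLA was 0.57 ± 0.15, which was not called. Its second probe set was called lower in both treatments too, with -1.10 in CLA and -0.99 in phenformin. On the brightest probe set, the calls in CLA and in phenformin held in all 16 alternatives. Nrg4 thus differed in direction from the other ligands called in CLA. Egf, Epgn, Nrg2, Nrg3 and Erbb4 were called in no comparison. Egf averaged 4.89 in phenformin, 4.58 in CLA and 5.01 in LA, and Nrg2 averaged 6.03, 6.33 and 6.02 in the same order. Epgn, the neighbour of Ereg, averaged 4.19, 4.04 and 4.28. Nrg3 and the receptor gene Erbb4 were not above background on any array.

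Among 11 genes that bear on ligand shedding, 1 was called higher and 1 lower in CLA, and 3 were called higher in phenformin than in LA. Of all named genes 12.6% were called higher and 7.58% lower in CLA, and 13.7% and 5.11% in phenformin. Median log2 fold changes of the 11 genes were 0.33 in CLA and 0.14 in phenformin. Adam17, a protease that releases EGFR ligands, read 9.65, 9.78 and 10.12 in CLA, against 8.90, 8.94 and 8.59 in LA. It rose by 1.04 ± 0.15 (limma adjusted p = 0.00084), and all 3 of its probe sets were called higher. In phenformin it read 9.61, 9.65 and 9.75 and rose by 0.86 ± 0.15 (adjusted p = 0.00285). Adam19 and Adam9, proteases of the same family, rose by 0.80 ± 0.17 and 0.75 ± 0.18 in phenformin (adjusted p = 0.00982 and 0.0165). The second Adam19 probe set was called higher in phenformin (0.96 ± 0.14) and also in CLA (0.68 ± 0.14). The Adam9 call was lost without phenformin replicate 1 and without phenformin replicate 2, at an adjusted p of up to 0.0662. Adam12, a further member, had -0.44 ± 0.13 in CLA (limma adjusted p = 0.0355), and its other probe set was not called (-0.36 ± 0.17). The Adam12 call was lost in 9 of 16 alternatives, up to an adjusted p of 0.12. Among them were those without each LA array, without CLA replicates 1 and 2 and without phenformin replicate 2. Rhbdf1, an inactive rhomboid that governs traffic of ADAM17, was lower in phenformin than in CLA (-0.53 ± 0.12, adjusted p = 0.0338). That call was lost in 10 of 16 alternatives, up to an adjusted p of 0.129, among them those without LA replicate 2 and without any single CLA or phenformin array.

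Among the adaptors and kinases that relay receptor signals, 18 of 23 were measured. Of these 6 were higher and 2 lower in CLA than in LA, and 7 were higher and 3 lower in phenformin. Shares over all named genes were 12.6% and 7.58% in CLA and 13.7% and 5.11% in phenformin. The medians of the 18 genes were 0.28 in CLA and 0.42 in phenformin. Eps8, a substrate of EGFR that links it to the actin cytoskeleton, read 8.34, 8.66 and 8.81 in phenformin, 9.56, 9.48 and 10.004 in CLA and 6.27, 6.19 and 5.77 in LA. It rose by 2.53 ± 0.19 in phenformin and by 3.61 ± 0.19 in CLA (limma adjusted p = 2.29e-05 and 1.63e-06), and phenformin was below CLA by -1.08 ± 0.19 (adjusted p = 0.0102). All 3 Eps8 probe sets gave these directions with a call. Shc1, an adaptor that binds activated receptors, rose by 1.13 ± 0.19 in CLA (adjusted p = 0.00254). In phenformin it was not called on that probe set (0.42 ± 0.19), but was on its dimmer one (1.08 ± 0.19, adjusted p = 0.00386). The small GTPase gene Nras rose by 0.83 ± 0.12 in CLA and 0.94 ± 0.12 in phenformin (adjusted p = 0.000999 and 0.000552), and 1 of its other 2 probe sets was called in both.

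Pik3r1, a regulatory subunit of PI3-kinase, fell by 0.86 ± 0.19 in phenformin and by 1.25 ± 0.19 in CLA (limma adjusted p = 0.0108 and 0.00126). Of its 3 dimmer probe sets 1 was called lower in both treatments, 1 in CLA and not in phenformin, and 1 in neither. The docking protein genes Gab2 and Gab1 rose by 1.54 ± 0.20 and 0.62 ± 0.12 in phenformin (adjusted p = 0.00056 and 0.00509). Gab2 was called higher in CLA too (0.68 ± 0.20, adjusted p = 0.0415). Gab1 lost its phenformin call after quantile normalization (adjusted p = 0.101), and its probe sets differed. One nearly as bright (1417693_a_at) was not called in phenformin (-0.06 ± 0.13) and was called lower in CLA (-0.88 ± 0.13, adjusted p = 0.00108), whereas the dimmest was called higher in phenformin (0.70 ± 0.18). Both were also higher in phenformin than in CLA, by 0.86 ± 0.20 for Gab2 and 0.90 ± 0.12 for Gab1 (adjusted p = 0.0353 and 0.00238). The Gab2 call between the treatments was lost without any single CLA or phenformin array, up to an adjusted p of 0.148, and its 2 dimmer probe sets were not called.

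Among 17 genes of receptor inhibition and turnover, 2 were higher and 1 lower in CLA than in LA, and 4 were higher and 1 lower in phenformin. Shares over all named genes were 12.6% and 7.58% in CLA and 13.7% and 5.11% in phenformin. The medians of the 17 genes were 0.09 in CLA and 0.33 in phenformin. Lrig1, a membrane protein that promotes breakdown of ERBB receptors, read 11.11, 10.71 and 10.16 in phenformin, 11.03, 10.79 and 10.78 in CLA and 11.87, 12.14 and 11.39 in LA. It was lower than in LA in phenformin (-1.14 ± 0.24, limma adjusted p = 0.00947) and in CLA (-0.93 ± 0.24, adjusted p = 0.0252). The CLA call was lost without LA replicate 1 or 2 and without each CLA array, up to an adjusted p of 0.0922. A second Lrig1 probe set was called lower in both treatments, and the third was not called. Hgs, which sorts receptors to the lysosome, and Socs5, a suppressor of EGFR signalling, rose in CLA by 1.17 ± 0.17 and 0.97 ± 0.14 (adjusted p = 0.000871 and 0.00104). In phenformin Socs5 rose by 0.65 ± 0.14 (adjusted p = 0.0101), and in both treatments its other probe set was not called.

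Sh3kbp1, an adaptor of receptor uptake, rose by 0.66 ± 0.18 in phenformin (limma adjusted p = 0.0298), a call lost in 6 of 16 alternatives, among them the replicate block, quantile normalization and those without LA replicate 3 or any phenformin array (adjusted p up to 0.0901). A pair of dimmer Sh3kbp1 probe sets was called higher in both treatments, by 1.70 ± 0.13 and 1.21 ± 0.16 in phenformin and 1.39 ± 0.13 and 0.87 ± 0.16 in CLA. Lrig2 had 0.75 ± 0.23 in phenformin (adjusted p = 0.0469), a call lost in 11 of 16 alternatives, up to an adjusted p of 0.176, among them those without each LA array, without CLA replicates 1 and 3 and without phenformin replicates 1 and 2. On the brightest probe set of each gene, this list had no call between phenformin and CLA. Dimmer probe sets had 4: Eps15 (0.64 and 1.24) and Usp2 (0.998) were called higher and Ptpn1 (-0.58) lower in phenformin than in CLA. The Eps15 probe set with 1.24 was above background on all 3 phenformin arrays but on 0 CLA arrays, so the size of that fold is uncertain.

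**Figure D4:**
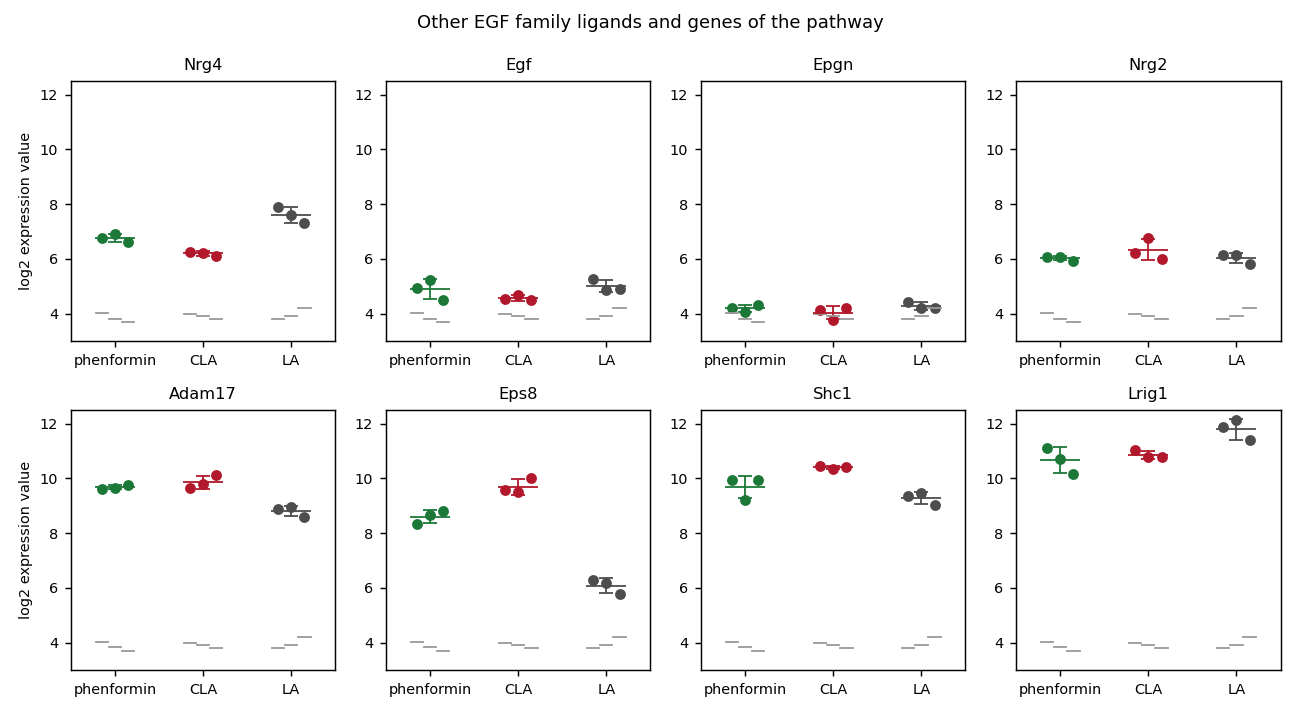
Log2 expression value (vertical axis) of 4 other family ligands (upper row) and 4 pathway genes (lower row) on every array of the phenformin, CLA and LA groups, brightest probe set of each gene. Points are arrays, bars with whiskers are means ± SD (n = 3) and grey lines mark each array's background. Nrg4 and Lrig1 lie lower and Adam17 and Eps8 higher in both treatments than in LA.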

How the data were processed

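Biotin-labelled cRNA made from Trizol-extracted total RNA was hybridised to Affymetrix mouse arrays, per the labels' protocols. Per the submitters' processing notes, the authors ran RMA under R 2.9.0, which gave the deposited log2 values. The authors also deposited limma tables, which hold log2 fold changes, p-values and, as a score, a moderated t and a log odds value, per the file headers. Those tables and the fit used here gave the same call for 63 of 63 member values, and their log2 fold changes differed by at most 6.67e-10.

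After removal of 64 control probe sets, lmFit and eBayes of limma 3.58.1 under R 4.3.3 were run once on all 9 arrays. The 3 contrasts were two-sided and p-values were adjusted by the Benjamini-Hochberg method over 45037 probe sets (threshold 0.05). The array annotation gave exactly 1 symbol to 34945 probe sets, several to 932 and none here to 9160, and only the first were named. A gene was represented by the probe set with the highest mean. The text names all members, the 6 other family genes, up to 4 called genes of each list with the smallest adjusted p, and the 5 genes most like Ereg, Errfi1 and Egfr. The members and lists were chosen with earlier results of these data known. Protein domains and the promoter of Ereg, planned for display, are not shown. The fit was tested on simulated data. Precision is limited by the small number of arrays. The alternatives were a 2-group fit, a replicate block, removal of each array, median centring, quantile normalization, a filter on dim probe sets, a mean-variance trend with a robust fit, weights per array, and gene means over probe sets. Python 3.11.15, pandas 2.3.3 and matplotlib 3.10.9 made the figures.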

Additional observations from a re-analysis of the deposited data

How the results depend on the processing

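The 8 calls among member probe sets in CLA minus LA and the 5 in phenformin minus LA stayed within 1.5 times under every alternative run. The 5 in phenformin minus CLA became 3 in the fit of the 2 groups and 2 to 6 when 1 array was left out, with 2 without CLA replicate 1 or 2 or any phenformin array. Calls among pathway genes in that comparison (4) became 10 with array weights, 10 over means of probe sets, and 2 to 7 with an array left out (7 without LA replicate 3, and 2 without CLA replicate 1 or 2 or phenformin replicate 1 or 2). Signs turned only for differences that were not called. Erbb3 in CLA minus LA (0.048) was -0.15 with array weights, -0.099 over means and -0.15 to 0.26 with an array left out, and Hbegf in phenformin minus LA -0.0016 to 0.20. In phenformin minus CLA, Nrg1 was 0.011 after median centring, 0.026 after quantile normalization, 0.029 with array weights and -0.13 to 0.059 with an array left out. Egfr was 0.037 after median centring, 0.078 over means and -0.16 to 0.096. Of all single-gene values 804 kept direction and call, 61 lost a call, 15 gained one and 15 turned sign, and the cause was not tested. Of all calls, 69.8% were higher in phenformin minus LA, 61.4% in CLA minus LA and 63.1% in phenformin minus CLA, against 48.8%, 46.6% and 52.4% after quantile normalization.

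The replicate numbers did not pair the arrays across all groups: deviations of same-numbered arrays correlated at -0.285 to 0.582, over 0.1 in 2 of 9 pairs. Those 2 pairs were between CLA and phenformin, where replicates 1, 2 and 3 correlated at 0.29, 0.092 and 0.582. Arrays of other numbers in these groups correlated at -0.532 to 0.386. Whether CLA and phenformin arrays of 1 number shared a batch was not tested. With the replicate number as a block, 8, 5 and 5 member probe sets were called in CLA minus LA, phenformin minus LA and phenformin minus CLA, and 13, 16 and 4 pathway genes. Only 3 of 18 comparisons of an array with another group had their best match at its own number.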
